A study of Mus musculus with 21 samples.

Results

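The glycolysis genes described here are 10 of the 23983 genes in the deposited expression table, picked by symbol: the glucose transporters Slc2a1 and Slc2a3, the enzymes Hk2, Pfkl, Pfkp, Aldoa, Pgk1, Eno1 and Ldha, and the kinase Pdk1. Their RNA was followed through 9 sorted mouse cell populations. From embryos made by aggregating reporter mES cells (T::H2B-Venus, Noto::H2B-mCherry and Foxa2::H2B-mTurquoise BACs in the F1G4 line, labelled C57BL/6N x SV129), notochord progenitors (NotoP: Noto+, T+, Foxa2+) and paraxial mesoderm progenitors (MP: T+, Noto-, Foxa2-) were sorted from caudal ends and trunk notochord cells (T+, Noto+, Foxa2+) from trunks, from embryos of E8.5 or E9.5. By the study's own sheet the gates were not identical: E8.5 NotoP was Foxa2+, E9.5 NotoP and both trunk libraries were Foxa2-high, and MP was T-high. The somite ranges of the trunk libraries were wider than those of NotoP of the same stage. From cultures of another F1G4 derivative, which carries T::H2B-mCherry-T2A-irTA, TRE::Foxa2-IRES-EGFP and Noto::H2B-mTurquoise, NMPdiff (T+, Noto-) were sorted on day 3, and MPdiff (T+, Noto-) and NotoPdiff (Noto+, T+) on day 4. All 3 cultures grew in N2B27 with 10 ng/ml bFGF, with CHIR99021 from day 2, and NotoPdiff cultures also received 1 ng/ml doxycycline, under which the T BAC drives extra Foxa2. Each population has 1 library, from pooled cells of 1 engineered line, so there is no replicate error and no test, and every difference given here is a difference between libraries.

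Glycolysis converts glucose to pyruvate. Glucose enters through facilitative transporters, is phosphorylated by hexokinase, is committed at the phosphofructokinase step and is then split and oxidised, and lactate dehydrogenase can reduce the resulting pyruvate to lactate. Many of these genes are textbook targets of the hypoxia-inducible factors (HIF), which bind a short core sequence next to their targets when oxygen is low, and Pdk1 turns pyruvate away from the mitochondria by inhibiting pyruvate dehydrogenase. In vertebrate embryos, glycolytic activity of the tail end is known to be graded, highest at the caudal tip.

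The HIF core is written ACGTG, and GCGTG is its common variant. Both were searched on both strands in the 250 bases upstream of each RefSeq start site (GRCm38.p6). A window was found for 9 of the 10 genes, at 15 start sites, and Slc2a3 had none. ACGTG was present in 6 of the 15 windows (40.0%) and in 16.6% of 32851 windows of all genes, and either word was present in 13 (86.7%) against 38.6%. The windows are rich in G and C. Among windows with 60 to 72% G and C, ACGTG was found in 6 of 10 at the glycolysis genes and in 23.8% of 7060 among all genes, and either word in 10 of 10 and in 63.1%. Overlapping windows of Aldoa and of Eno1 share their matches. CACGTG, a longer word that contains ACGTG on both strands, was found in 1 member window (6.67%), that of Ldha, against 6.02% of all windows. Letters of this kind describe the sequence and do not show binding. Shown here are 4 windows that contain no annotated exon, 3 with 2 or more ACGTG matches and that of Pdk1, which has GCGTG alone. All read 5′ to 3′ toward the start site, with matches of either word and its reverse complement in capitals.
Ldha, chr7:46845554-46845803, plus strand: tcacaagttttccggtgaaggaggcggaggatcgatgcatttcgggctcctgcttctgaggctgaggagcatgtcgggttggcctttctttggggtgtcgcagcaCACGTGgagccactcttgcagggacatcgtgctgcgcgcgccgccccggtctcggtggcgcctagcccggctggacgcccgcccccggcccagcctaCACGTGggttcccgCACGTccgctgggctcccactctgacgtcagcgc
Pgk1, chrX:106186850-106187099, plus strand: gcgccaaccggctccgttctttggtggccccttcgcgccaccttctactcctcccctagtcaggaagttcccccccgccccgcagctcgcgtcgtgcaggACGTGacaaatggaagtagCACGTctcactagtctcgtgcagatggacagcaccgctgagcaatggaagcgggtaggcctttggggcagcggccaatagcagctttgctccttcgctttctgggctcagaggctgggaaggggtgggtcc
Hk2, chr6:82774455-82774704, minus strand: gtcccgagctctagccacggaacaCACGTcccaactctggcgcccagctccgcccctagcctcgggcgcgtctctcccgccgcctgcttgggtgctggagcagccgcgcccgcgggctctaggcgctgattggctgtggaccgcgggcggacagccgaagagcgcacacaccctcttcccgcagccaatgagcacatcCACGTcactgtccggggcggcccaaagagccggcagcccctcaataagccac
Pdk1, chr2:71872974-71873223, plus strand: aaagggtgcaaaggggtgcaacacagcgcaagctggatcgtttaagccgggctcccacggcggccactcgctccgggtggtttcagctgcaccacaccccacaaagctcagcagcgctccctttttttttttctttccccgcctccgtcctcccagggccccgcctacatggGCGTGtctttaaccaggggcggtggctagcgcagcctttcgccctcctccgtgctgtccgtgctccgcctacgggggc
The Ldha window has 5 matches of ACGTG counted over both strands, 4 of them in 2 copies of the palindrome CACGTG, and the windows of Pgk1 and Hk2 have 2 matches each. The RNA of these 4 genes is described next, in order along the pathway.

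**Figure D1:**
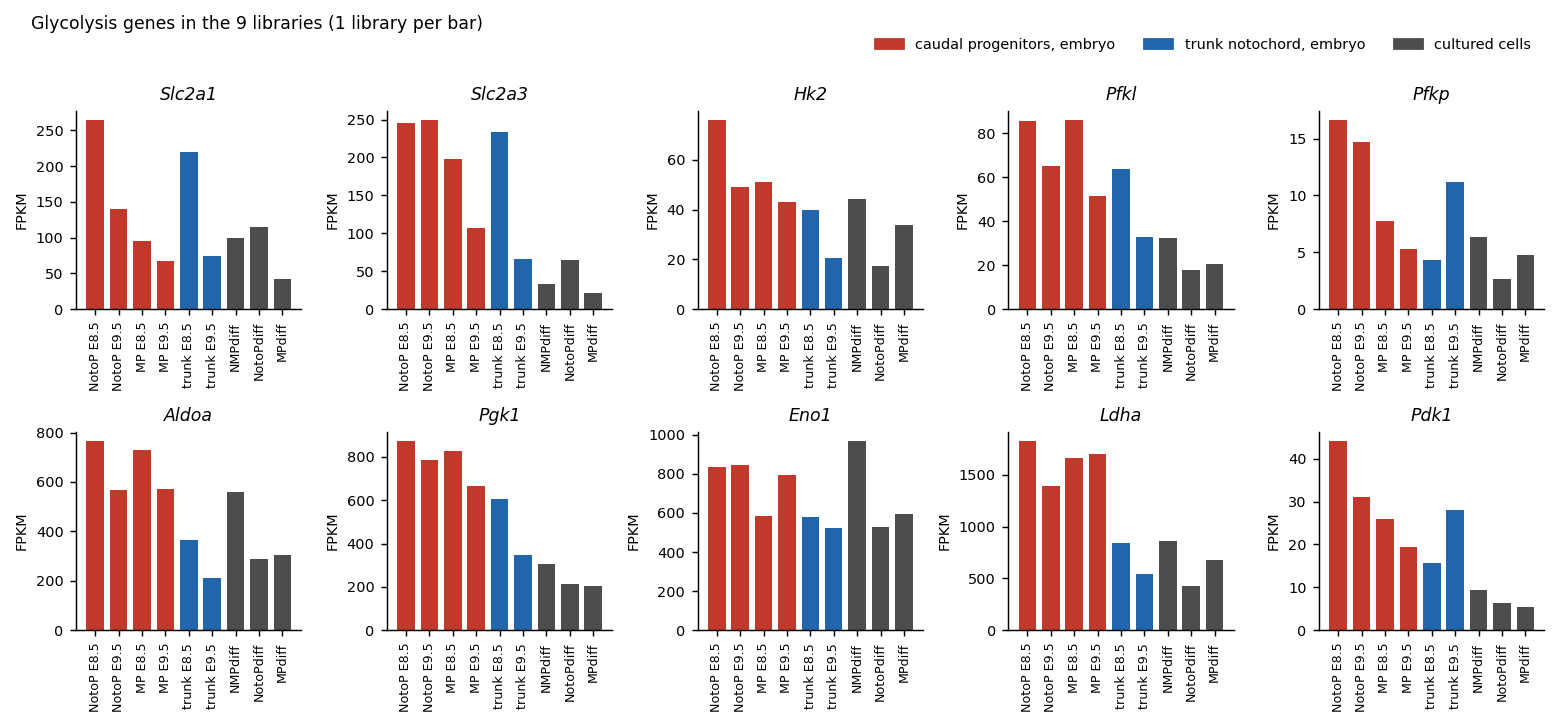
FPKM (y axis, linear, a separate scale for each gene) of the 10 glycolysis genes in the 9 libraries (x axis), 1 bar per library, for caudal progenitors (red), trunk notochord (blue) and cultured cells (grey). NotoP at E8.5 has the highest bar for 7 of the 10 genes, whereas the highest Eno1 bar is that of NMPdiff, at 966 FPKM.

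All levels are FPKM, fragment numbers scaled to transcript length and library size, so that genes can be compared per length. The transporters come first. Slc2a1 (chr4:119108711-119137983), which encodes the widespread transporter GLUT1, had 264 FPKM in E8.5 NotoP, 140.2 in E9.5 NotoP, 95.9 and 67.2 in MP of the same stages, 219.8 and 74.9 in trunk notochord, 100.04 in NMPdiff, 115 in NotoPdiff and 42.5 in MPdiff. Slc2a3 (chr6:122727809-122801640), which encodes the high-affinity transporter GLUT3, had 245 and 249 FPKM in NotoP, 198 and 107 in MP, 234 and 66.0 in trunk notochord, 32.6 in NMPdiff, 64.3 in NotoPdiff and 21.4 in MPdiff. The 6 embryonic values of Slc2a3 were all above the 3 cultured ones, although the lowest of them, E9.5 trunk notochord, lay only just above NotoPdiff. Slc2a1 values of embryo and culture overlapped. The balance of the pair also differed: on the log2 scale Slc2a1 minus Slc2a3 was 1.59 in NMPdiff, 0.83 in NotoPdiff and 0.95 in MPdiff, and between -1.04 and 0.18 in the 6 embryonic libraries.

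Hk2 (chr6:82725025-82774454), the inducible hexokinase that traps glucose in the cell, had 75.8 and 49.2 FPKM in NotoP at E8.5 and E9.5, 50.9 and 43.0 in MP, 39.9 and 20.7 in trunk notochord, 44.4 in NMPdiff, 17.3 in NotoPdiff and 33.6 in MPdiff. All 4 caudal values were above both trunk values, with the closest pair being E9.5 MP and E8.5 trunk notochord. Its relative Hk1 stayed at 1.60 to 6.81 FPKM in the 9 libraries.

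Phosphofructokinase is built from subunits encoded by Pfkl, Pfkp and Pfkm. Pfkl (chr10:77986947-78010083) had 85.8 and 65.0 FPKM in NotoP, 85.9 and 51.5 in MP, 63.9 and 32.6 in trunk notochord, 32.5 in NMPdiff, 17.6 in NotoPdiff and 20.5 in MPdiff. Pfkp (chr13:6579768-6648777) had 16.6 and 14.7 FPKM in NotoP, 7.72 and 5.33 in MP, 4.36 and 11.2 in trunk notochord, 6.38 in NMPdiff, 2.61 in NotoPdiff and 4.72 in MPdiff. Pfkl was the more abundant subunit gene in every library, and its embryonic values were all above its cultured values, although E9.5 trunk notochord and NMPdiff were almost level. Pfkm, which is not among the 10, ran the other way between regions: it had 3.68 to 10.1 FPKM in caudal progenitors and 10.9 and 19.3 in trunk notochord.

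The enzymes of the lower pathway were far more abundant. Aldoa (chr7:126795234-126800751), the aldolase that splits the phosphorylated sugar, had 764 and 569 FPKM in NotoP, 729 and 573 in MP, 364 and 210.4 in trunk notochord, 558 in NMPdiff, 289.6 in NotoPdiff and 303 in MPdiff. Pgk1 (chrX:106187100-106203699), a kinase that makes ATP in the pathway, had 871 and 786 FPKM in NotoP, 826 and 664 in MP, 607 and 349 in trunk notochord, 307 in NMPdiff, 213 in NotoPdiff and 205 in MPdiff. The Pgk1 values thus fell into 3 bands that did not overlap, caudal progenitors above trunk notochord above cultured cells. Eno1 (chr4:150236721-150248879), the enolase of most tissues, had 833 and 846 FPKM in NotoP, 584 and 792 in MP, 577 and 523 in trunk notochord, 966 in NMPdiff, 529 in NotoPdiff and 595 in MPdiff. The spread of Eno1 was the narrowest of the 10, and its highest value was in culture. Its value is uncertain because a near-identical intronless copy, Eno1b, has a row of its own at 171 to 287 FPKM in the embryo and 322 to 543 in culture, and the authors placed each read once.

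Ldha acts on the pyruvate that glycolysis makes, and Pdk1 on pyruvate dehydrogenase, the enzyme that uses this pyruvate in the mitochondria. Ldha (chr7:46841475-46855627), the lactate dehydrogenase subunit that favours lactate formation, had 1822 and 1389 FPKM in NotoP, 1661 and 1699 in MP, 839 and 541 in trunk notochord, 862 in NMPdiff, 423 in NotoPdiff and 681 in MPdiff. It was the most abundant of the 10 genes in 7 of the 9 libraries, and Eno1 led in NMPdiff and NotoPdiff. Pdk1 (chr2:71873224-71903858) had 44.0 and 31.1 FPKM in NotoP, 26.0 and 19.3 in MP, 15.7 and 28.0 in trunk notochord, 9.38 in NMPdiff, 6.38 in NotoPdiff and 5.32 in MPdiff. Every embryonic Pdk1 value was above every cultured one. Ldhb, the partner subunit that favours pyruvate, ran opposite: all 3 cultured values (50.4 to 98.2 FPKM) were above all 6 embryonic ones (10.2 to 49.8), so the log2 of Ldha over Ldhb was 3.42 to 6.56 in the embryo and 2.09 to 4.07 in culture, where the ranges meet at E9.5 trunk notochord.

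Summed, the 10 genes took 0.951 to 1.22% of all FPKM in the caudal progenitors, 0.771 and 0.507% in E8.5 and E9.5 trunk notochord, 0.723% in NMPdiff, 0.439% in NotoPdiff and 0.496% in MPdiff. The genes did not all share 1 pattern over the libraries. Across the 9 libraries, Pearson's r of log2(FPKM + 1) was highest for Pfkl with Pgk1 (r = 0.98) and lowest for Slc2a3 with Eno1 (r = 0.11). These points share instrument within embryo and within culture, so r is a description. Among 3572 genes averaging 20 FPKM or more, those outside the 10 whose profile was most like the average of the 10 were Dnajc9 (r = 0.98), a histone co-chaperone, Bnip3 (0.96), a mitophagy receptor, and Cenpk, Pgam1 and Psma7 (0.95 each), of which Pgam1 is the next enzyme after Pgk1.

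The labels were checked against markers before any comparison. Noto was 152 and 164 FPKM in NotoP, 27.5 and 20.8 in trunk notochord, 22.5 in NotoPdiff, 0.51 in NMPdiff and listed at 0 in the MP and MPdiff libraries. Paraxial progenitor markers (8 genes, Tbx6 and Msgn1 among them) summed to 231 to 584 FPKM in the 4 caudal libraries, NotoP included, and to 17.4 and 7.29 in trunk notochord. The 8 neuromesodermal progenitor markers summed to 515 FPKM in NMPdiff, of which T made up 406. Nkx1-2 (41.5), Fgf8 (36.6), Cdx1 (14.0) and Wnt3a (11.8) were present there, whereas Cdx2 (3.49), Sox2 (1.07) and Cdx4 (0.31) were low. Pluripotency markers summed to 325 FPKM in NMPdiff (Pou5f1 at 269), to 15.6 and 17.1 in NotoPdiff and MPdiff and to at most 3.12 in the embryo. Gut markers summed to 252 FPKM in E8.5 trunk notochord (Spink3 at 135) and 6.68 to 72.9 in the other 5 embryonic libraries, and in culture to 119 in NMPdiff, 249.5 in NotoPdiff (Cldn6 at 126 and Trh at 71.8) and 38.4 in MPdiff. The list was not uniform in NotoPdiff: Epcam was at 31.7, Rhox5 at 8.15, Sox17 at 7.46 and Spink3 at 4.38, and Apoa1 and Ttr were at 0. The 8 blood markers summed to at most 2.27 anywhere. The E8.5 MP library, which had the fewest cells and reads by the study's own sheet, had 13945 genes at 0 against 10719 to 12407 in the other embryonic and 7573 to 8246 in the cultured libraries. By the same sheet, both trunk notochord libraries also had fewer cells and reads than both NotoP libraries and E9.5 MP. In sorted bulk RNA, fewer cells of a type and less RNA per cell cannot be told apart. Embryonic and cultured libraries were read on different Illumina instruments, so embryo against culture and instrument cannot be told apart either.

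The first question was how progenitors made in culture compare with those of the embryo. In NotoPdiff, all 10 genes were lower than in embryonic NotoP of either stage, with a median log2 ratio of -2.05 against E8.5 and -1.77 against E9.5, where the 11922 tested genes (averaging 1 FPKM or more) had 0.05 and 0.03. At 3-fold in the same direction at both stages, a criterion taken from the study and applied here to FPKM + 1 in the tested genes, 6 genes were called lower in NotoPdiff: Slc2a3, Pfkl, Pfkp, Pgk1, Ldha and Pdk1. Of the tested genes, 1.21% were called lower, and 2.06% were called higher, among them 0 of the 10. Pdk1 had the largest difference against E8.5, and Pdk1 (-2.61 and -2.12) and Pfkp (-2.29 and -2.12) had about the same against E9.5. Ldha was at -2.11 and -1.71, and Pgk1 at -2.03 and -1.88. Hk2 passed 3-fold against E8.5 (-2.07) but not against E9.5 (-1.46), and at 2-fold it joined the other 6, where 3.71% of tested genes were called. Slc2a1 (-1.19 and -0.28), Aldoa (-1.40 and -0.97) and Eno1 (-0.65 and -0.67) passed neither criterion at both stages. The gut marker sum, 249.5 FPKM in NotoPdiff against 72.9 and 32.5 in NotoP, differs between the same libraries, and its part in these ratios was not tested. Most of the NotoPdiff sum is Cldn6, Trh and Epcam, whereas Apoa1 and Ttr were at 0 in NotoPdiff and in NotoP.

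**Figure D2:**
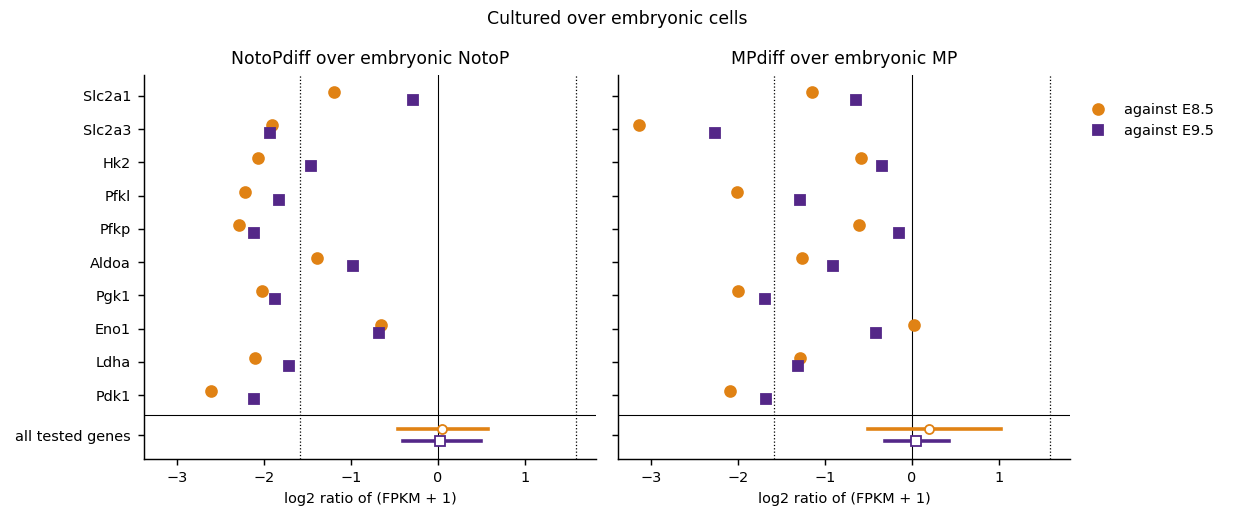
Log2 ratio of (FPKM + 1) (x axis) of NotoPdiff over embryonic NotoP (left) and MPdiff over embryonic MP (right) for each gene, against the E8.5 (circles) and E9.5 (squares) library. The open symbols and bars at the bottom are the median and the middle 50% of the 11922 tested genes, and dotted lines mark 3-fold. On the left 6 genes lie beyond 3-fold at both stages and on the right 3.

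In MPdiff, 9 of the 10 genes were lower than in E8.5 MP, with Eno1 level at 0.02, and all 10 were lower than in E9.5 MP. The median log2 ratio was -1.27 and -1.10, against 0.19 and 0.04 over all tested genes. At 3-fold at both stages 3 genes were called lower, Slc2a3, Pgk1 and Pdk1, where 0.696% of tested genes were, and 0 were called higher (1.86% of tested genes). Slc2a3 differed most, by -3.15 and -2.26, a transporter that thus held 198 FPKM in E8.5 MP and 21.4 in MPdiff. Pgk1 was at -2.003 and -1.69, and Pdk1 at -2.10 and -1.69. At 2-fold, Pfkl (-2.02 and -1.29) and Ldha (-1.28 and -1.32) were added, giving 5 genes, with 2.31% of tested genes called. Pfkp, called in NotoPdiff, was at -0.61 and -0.15 here, and Hk2 at -0.58 and -0.35. The difference between the cell types was not tested.

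Over all 9 libraries, 4 of the 10 genes (Slc2a3, Pfkl, Pgk1 and Pdk1) had every embryonic value above every cultured value, and 0 had the reverse order. Of all tested genes 3.09% had the first order and 4.85% the reverse, and of the 3572 genes averaging 20 FPKM or more, as 9 of the 10 do, 6.75% had the first and 5.1% the reverse. The gap between the nearest values was under 2-fold for all 4, and a gap of at least 2-fold was seen in 0.151% of tested genes. Within culture, all 10 genes were lower in MPdiff than in NMPdiff, with a median of -0.61, and 52.2% of tested genes were. In NotoPdiff 8 were lower than in NMPdiff (median -0.86), and 49.2% of tested genes were. Slc2a1 and Slc2a3 were at 0.20 and 0.96 in that comparison. NotoPdiff over MPdiff had a median of -0.12. There Slc2a1 and Slc2a3 were higher in NotoPdiff by 1.42 and 1.54, past 2-fold as in 7.33% of tested genes, Hk2 was at -0.92, and none of the 10 passed 3-fold, which 2.82% of tested genes did upward and 0.78% downward.

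The second question was how trunk notochord, the differentiated tissue, compares with the caudal progenitors. All 10 genes were lower in trunk notochord than in NotoP at both stages, although by modest amounts. The median log2 ratio was -0.72 at E8.5 and -1.07 at E9.5, against 0.00 and -0.01 over all tested genes, of which 48.3 and 50.2% were lower. At 3-fold at both stages 0 were called lower or higher, where 1.97 and 1.66% of tested genes were. At 2-fold, 2 were called lower, Aldoa (-1.07 and -1.43) and Ldha (-1.12 and -1.36), with 5.02% of tested genes. Pgk1 was at -0.52 and -1.17, and Hk2 at -0.91 and -1.21. The transporters parted by stage: Slc2a3 was at -0.07 in the earlier and -1.90 in the later embryos, and Slc2a1 at -0.26 and -0.90. Pfkp (-1.71 and -0.36) and Pdk1 (-1.43 and -0.15) had the opposite timing. Both trunk libraries held fewer cells and reads than those of NotoP and spanned wider somite ranges, and at E8.5 the Foxa2 gate differed as well. The part of these differences in the splits was not tested. E8.5 trunk notochord, where the transporters were high, is also the library with the highest gut marker sum in the embryo, and the part of that in these values was not tested. In E9.5 trunk notochord, where the median was the lower of both stages, widely expressed genes outside the pathway were low as well: their summed level was 6763 FPKM against 10071 in E9.5 NotoP and 9199 to 10414 in the other embryonic libraries, with Actb at 930 against 1375 and Rplp0 at 388 against 686. Their part in the E9.5 ratios was not tested either.

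Against MP, trunk notochord had 8 genes lower at E8.5 and 7 at E9.5, with medians of -0.43 and -0.66, against 0.11 and 0.00 over all tested genes. At 3-fold 0 were called (1.88% of tested genes lower, 4.44% higher), and at 2-fold Aldoa alone was lower at both stages (-1.001 and -1.44), as 4.95% of tested genes were. Ldha narrowly missed at E8.5 (-0.98) and was at -1.65 at E9.5. Slc2a1 was higher in trunk notochord, by 1.19 at E8.5 and 0.15 at E9.5. Over the 6 embryonic libraries, Hk2, Aldoa, Pgk1, Eno1 and Ldha had all 4 caudal values above both trunk values, and 0 of the 10 had the reverse. This order held in 9.5% of tested genes and in 15.5% of those averaging 20 FPKM or more, and the reverse in 12.6% and 8.57%. The nearest values of all 5 were under 2-fold apart, and 1.11% of tested genes had a wider gap. Pgk1 alone of the 10 had both orders, embryo above culture and caudal above trunk, as did 27 genes in all (0.226%). The paraxial marker sums given above, high in every caudal library and low in trunk notochord, move with this order, and their part in it was not tested.

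**Figure D3:**
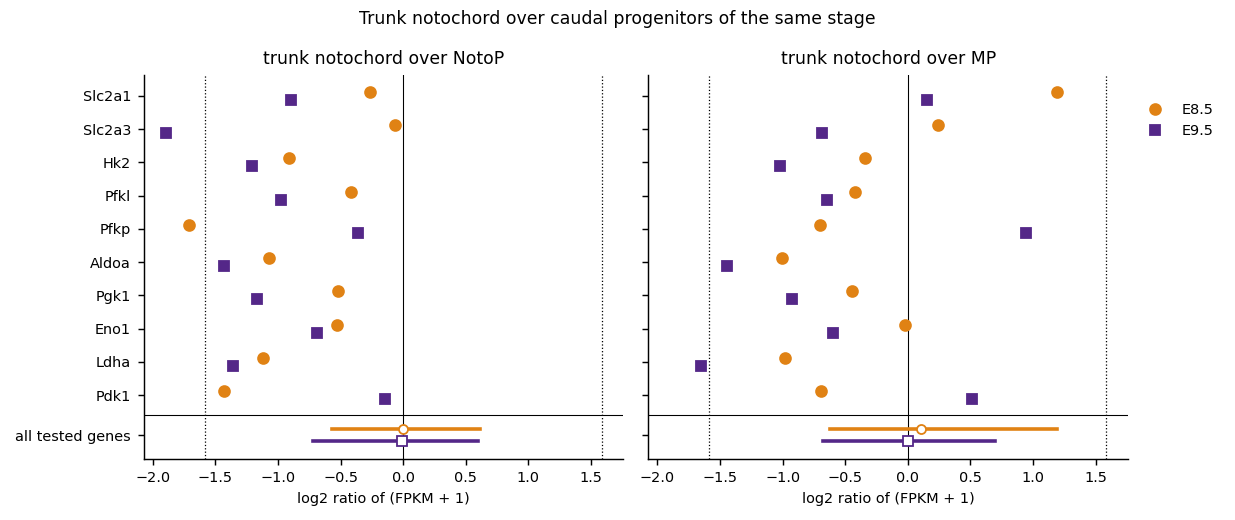
Log2 ratio of (FPKM + 1) (x axis) of trunk notochord over NotoP (left) and over MP (right) of the same stage for each gene, at E8.5 (circles) and E9.5 (squares). The open symbols and bars at the bottom are the median and the middle 50% of the 11922 tested genes, and dotted lines mark 3-fold. On the left all points lie below 0, with Aldoa and Ldha below -1 at both stages.

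NotoP and MP, sorted from the same caudal ends, were closer. Of the 10 genes 9 were higher in NotoP at E8.5 and 8 at E9.5, with medians of 0.41 and 0.29, against 0.11 and 0.02 over all tested genes. None passed 3-fold at both stages in either direction (2.61% of tested genes higher, 0.478% lower). At 2-fold Slc2a1 (1.45 and 1.05) and Pfkp (1.01 and 1.31) were called higher, as 6.5% of tested genes were. Aldoa (0.07 and -0.01) and Ldha (0.13 and -0.29) were nearly level. Between stages, 8 of the 10 genes were lower at E9.5 in each of NotoP (median -0.39), MP (-0.38) and trunk notochord (-0.79). Of tested genes 49.3, 42.8 and 49.0% were, with medians of 0.00, 0.10 and 0.00. The Foxa2 gate of NotoP differed between the stages, and its part in these values was not tested. The genes lower at 3-fold at E9.5 were 0 in NotoP, 0 in MP and 1 in trunk notochord, Slc2a3 at -1.81, where 3.28, 5.95 and 9.82% of tested genes were.

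The rest of the pathway was counted from lists. Of 19 other glycolytic enzymes 12 were tested. Embryo against culture, 1 was called lower in NotoPdiff at 3-fold, the muscle mutase Pgam2 (9.37 and 25.6 FPKM in NotoP, 1.93 in NotoPdiff), and 4 at 2-fold. Of all tested genes 1.21 and 3.71% were. Gapdh, which oxidises the split sugar, was 463 to 865 FPKM in the 6 embryonic and 209.97 to 293 in the 3 cultured libraries, and it alone among the 12 had no overlap. Embryo above culture without overlap held in 3.09% of tested genes. Caudal values were all above trunk values for 5 (Gpi1, Tpi1, Gapdh, Pgam1 and Pkm) and below for Pfkm and the muscle enolase Eno3. Of all tested genes 9.5% were above and 12.6% below, so those below were near that share. Pkm, the pyruvate kinase gene, had 973 to 1147 FPKM in caudal progenitors, 476 and 644 in trunk notochord and 530.4 to 725 in culture.

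Other steps around the pathway showed single genes rather than whole lists. Pfkfb3, whose product makes the activator of phosphofructokinase, had 77.2 and 35.9 FPKM in NotoP, 11.5 to 26.0 in the other embryonic libraries and 5.08 to 8.24 in culture, and was called lower in NotoPdiff at -3.68 and -2.60. Slc16a3, the lactate exporter MCT4, had 64.1 to 102 FPKM in caudal progenitors, 43.4 and 47.9 in trunk notochord, 50.4 in NMPdiff, 14.4 in NotoPdiff and 23.5 in MPdiff, and was called lower in NotoPdiff at -2.74 and -2.54. Slc16a1, the related carrier MCT1, went the other way in NotoPdiff, by 1.38 and 1.25 (38.5 and 42.4 FPKM in NotoP, 102 in NotoPdiff). Among 11 tested genes of pyruvate entry 0 were called at 3-fold. Pdk3, another pyruvate dehydrogenase kinase gene, had every embryonic value above every cultured one (34.4 to 47.3 against 19.0 to 22.6 FPKM). Pdha1, the subunit these kinases act on, had the reverse order (13.8 to 63.0 against 69.2 to 94.2), as did Pdp2 (1.48 to 6.54 against 7.79 to 9.33). Of all tested genes 3.09% had the first order and 4.85% the reverse, so in a list this short these orders say little. Of 17 citric acid cycle genes, 7 pentose phosphate genes, 6 genes of the serine and hexosamine branches and 2 tested of gluconeogenesis, 0 were called at 3-fold between embryo and culture in either cell type. Of all tested genes 1.21% were called lower and 2.06% higher in NotoPdiff, and 0.696 and 1.86% in MPdiff. At such shares, 0 calls in lists this short says little.

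**Figure D4:**
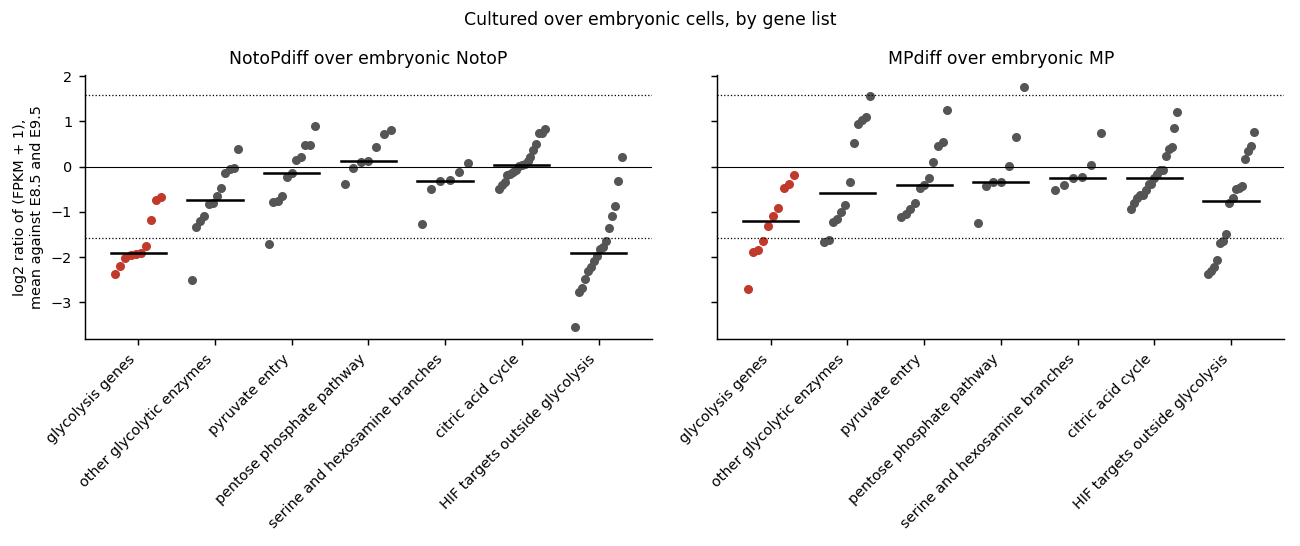
Log2 ratio of (FPKM + 1), the mean against E8.5 and E9.5 (y axis), of NotoPdiff over NotoP (left) and MPdiff over MP (right), 1 point per tested gene, by list (x axis), with the median as a bar and 3-fold as dotted lines. On the left the glycolysis genes (median -1.92) and HIF targets outside glycolysis (-1.90) are low, the other glycolytic enzymes (-0.73) less so, and the citric acid cycle genes (0.05) lie around 0. On the right the medians are -1.19 for the glycolysis genes, -0.75 for the HIF targets and -0.59 for the other glycolytic enzymes.

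HIF targets outside glycolysis were followed as well, 18 textbook genes of which 16 were tested. Car9 and Adm fell below the filter, with at most 1.52 FPKM (Car9, in NotoPdiff) and 0.683 (Adm, in E8.5 NotoP). Whether HIF has a part in any of these differences was not tested, and the sequence matches printed above do not show binding. In NotoPdiff, 7 were called lower than NotoP at 3-fold at both stages and 0 higher, and 11 at 2-fold, with 1.21 and 3.71% of tested genes. The 7 were Bnip3, Egln1, P4ha1, Kdm3a, Fam162a, Ak4 (-2.21 and -2.24) and Ero1l (-1.81 and -1.85). In MPdiff the counts were 3 (Bnip3, Egln1 and P4ha1) and 5, with 0.696 and 2.31%. Bnip3 had 358 and 156 FPKM in NotoP, 91.6 and 59.9 in MP, 104 and 50.1 in trunk notochord and 28.6, 19.3 and 14.1 in NMPdiff, NotoPdiff and MPdiff. P4ha1, a collagen prolyl hydroxylase gene, had 32.6 to 71.1 FPKM in the embryo and 8.38 to 9.17 in culture, the widest gap of the list. Every embryonic value was above every cultured value for 7 of the 16 (Bnip3, Bnip3l, Egln1, P4ha1, Higd1a, Kdm3a and Fam162a), as for 3.09% of tested genes. Not all followed: Vegfa was at -0.74 and -1.01 in NotoPdiff, Ddit4 at -0.84 and 0.21, and Mxi1 at 0.22 and 0.19. Trunk notochord was lower than NotoP for 16 of the 16 at E8.5 and 13 at E9.5, with a median of -0.79 at either stage, and 48.3 and 50.2% of tested genes were lower. There 2 were called lower at 3-fold, Bnip3 (-1.77 and -1.62) and Ndrg1 (-4.48 and -1.95), as 1.97% of tested genes were, and 0 higher. Ndrg1 had 72.1 and 15.6 FPKM in NotoP, 0 and 1.11 in MP and 2.28 and 3.29 in trunk notochord, and was also called higher in NotoP than in MP. Against MP the medians were 0.04 and 0.32, and Ankrd37 was called higher in trunk notochord, at 4.36 and 2.68. With NotoP and MP pooled as caudal libraries, 0 of the 16 had all caudal values above both trunk values or below, and 5 of the 10 glycolysis genes had the first order. Hif1a RNA itself was 51.4 to 94.8 FPKM in all 9 libraries, at 0.15 and 0.28 in NotoPdiff against NotoP, and HIF1A protein, which oxygen controls, was not measured. Epas1, which encodes HIF2A, had 0.705 and 0.12 FPKM in NotoP, 2.42 and 0.513 in MP, 7.81 and 2.66 in trunk notochord, 0.81 in NMPdiff, 5.10 in NotoPdiff and 1.09 in MPdiff. It was called higher than NotoP both in NotoPdiff (1.84 and 2.45) and in trunk notochord (2.37 and 1.71), and both trunk values were above all caudal ones, at levels below 10 FPKM in every library. Mycn, a Myc family factor, and its partner Max had all caudal values above both trunk values, with Mycn at 34.9 to 64.3 FPKM in caudal progenitors and 6.78 and 8.24 in trunk notochord. Beside Ankrd37 and Mycn (-2.85 and -2.48), the pathway genes called at 3-fold between trunk notochord and MP were Pgam2 (3.05 and 1.86) and Pfkfb2 (2.35 and 2.11), higher in trunk notochord, and Idh3a of the citric acid cycle (-2.03 and -2.33), lower.

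The binding of T and Foxa2, the transcription factors of the notochord, was asked last, in the peaks of NotoPdiff-enriched cultures of day 4 (6875 for T, 22684 for Foxa2, 1 library each). Within 5 kb of a start site, T had a peak at 1 of the 10 genes, Slc2a1, against 10.9% of 11400 tested genes with a start site, and Foxa2 at 1, Pfkp, against 19.0%. The T peak (chr4:119108065-119108438) lies outside any gene, 567 bp upstream of the nearest Slc2a1 start, with a fold enrichment of 4.18 and a −log10 q of 3.06. The Foxa2 peak (chr13:6640219-6640790) is in an intron of Pfkp, 3929 bp upstream of its nearest start, with 9.71 and 13.6. Neither overlaps a peak of the other factor. Shown are the 300 bases around each summit, the plus strand of GRCm38.p6, without capitals because the words searched were not in them (GGTGTGA for T, present in 13.5% of T summits, and TGTTTAC or TATTTAC for Foxa2, present in 30.4% of Foxa2 summits, on both strands), which says nothing more of the factor.
T at Slc2a1, chr4:119107994-119108293: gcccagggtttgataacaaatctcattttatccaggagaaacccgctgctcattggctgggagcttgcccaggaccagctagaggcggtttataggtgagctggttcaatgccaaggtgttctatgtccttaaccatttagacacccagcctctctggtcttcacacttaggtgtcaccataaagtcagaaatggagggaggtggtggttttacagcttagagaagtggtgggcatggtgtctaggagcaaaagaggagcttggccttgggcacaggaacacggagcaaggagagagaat
Foxa2 at Pfkp, chr13:6640429-6640728: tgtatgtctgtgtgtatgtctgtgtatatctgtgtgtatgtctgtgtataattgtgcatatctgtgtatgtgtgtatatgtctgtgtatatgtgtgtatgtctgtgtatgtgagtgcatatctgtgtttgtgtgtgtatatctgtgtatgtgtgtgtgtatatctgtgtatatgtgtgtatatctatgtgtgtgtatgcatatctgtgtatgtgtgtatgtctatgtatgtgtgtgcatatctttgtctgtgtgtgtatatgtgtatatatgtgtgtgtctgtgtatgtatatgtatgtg
Only exact words were sought, and the Slc2a1 sequence holds stretches 1 base away from the T word or its reverse complement. A stretch of each kind lies close to the summit, almost side by side and in opposite orientations. So the missing exact word does not show that a T site is absent. How often such stretches occur at other peaks was not counted. The Pfkp sequence is a long run of TG repeats, with T and G at 77.3% of its bases, and 9.66% of Foxa2 summits are as rich in T and G on either strand. Within 50 kb, T peaks were found at 3 of the 10 genes (37.0% of tested genes) and Foxa2 peaks at 6 (64.6%). At these distances, the shares at the glycolysis genes were near those of all genes. The strongest T peak in that range, 12348 bp from an Aldoa start with a fold enrichment of 13.6, lies in the neighbouring gene Tbx6, itself a paraxial mesoderm gene.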

How the data were processed

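Of 21 samples, 9 RNA-seq libraries and 2 ChIP-seq libraries were analysed, and the other 10 were not used here. The authors mapped RNA-seq reads to mm10 with TopHat2 2.1.1, kept 1 alignment per read on the sequenced strand, removed PCR duplicates by molecular identifiers and deposited FPKM values from Cufflinks 2.2.1, 1 column per library. The deposited table gives no counts, so the counts behind single values are not known here and no counting interval is given. All columns were used, and the number left out was 0. ChIP reads were mapped with Bowtie 1.3.1, and the deposited MACS3 3.0.0b1 peak lists give, per library, fold enrichment, −log10 p, −log10 q and a display score, of which the fold and −log10 q are printed.

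Ratios are log2((FPKM + 1) ratio), which understates changes of low genes. The tested genes were the 11922 averaging 1 FPKM or more. A call is 3-fold at both stages, as in the study, but applied here to FPKM + 1 in the tested genes. With 1 library per condition no statistical test was run. The call functions were tested on simulated data. The 10 genes, the pathway lists and the marker lists were chosen with earlier results of these data known, and support nothing by having been chosen. Other pathway genes are named where called at 3-fold, and some others beside them. Positions come from GENCODE M21, promoters and genome sequence from RefSeq GRCm38.p6, both the build of the files. Analyses used Python with numpy and pandas. Alternatives were the pseudocount, the fold, the filter, a rescaling of libraries, single stages, left-out libraries, Eno1 with Eno1b, and the peak window and q.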

Additional observations from a re-analysis of the deposited data

Results flagged for a closer look

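Both results here stand out because the log2 change of a gene from E8.5 to E9.5 had opposite signs in 2 embryonic cell types and differed by at least 3-fold between them, with 1 library at each point, so the difference was not tested. For Slc2a3 one of the signs rests on almost no change: it was almost level in NotoP (245 and 249 FPKM, log2 0.02) and fell by 1.81 on the log2 scale in trunk notochord (234 and 66.0 FPKM), a difference of 1.83. Pfkp went from 7.72 to 5.33 FPKM in MP (-0.46) and from 4.36 to 11.2 in trunk notochord (1.19), a difference of -1.65. The trunk notochord libraries and E8.5 MP had the fewest cells and reads of the embryonic ones, and the Foxa2 gate of NotoP differed between the stages.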

How the results depend on the processing

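No paired analysis was possible because each condition has 1 library and the result comes from no test. For the same reason no library of a condition could be left out in favour of another. Counts of called genes moved with the fold: at 2-fold in place of 3-fold, 5 were lower in MPdiff in place of 3, 2 and 1 were lower in trunk notochord than in NotoP and in MP in place of 0, 2 were higher in NotoP than in MP in place of 0, and 2 were lower at E9.5 in trunk notochord in place of 1. Of tested genes 18.3% were 2-fold lower at E9.5 in trunk notochord, near the share of the 10, and the other 2-fold shares are given above. At E8.5 alone or E9.5 alone, 1 gene was 3-fold lower in trunk notochord than in NotoP, where 7.39 and 9.71% of tested genes were. At E9.5 alone 1 was lower than in MP, where 8.65% of tested genes were. These single-stage counts are near those shares. With at least 2-fold between the nearest values, 0 genes had embryo above culture and 0 had caudal above trunk, in place of 4 and 5. For Foxa2, 0 genes had a peak within 1 kb and 6 within 50 kb in place of 1, and for T 3 within 50 kb in place of 1. Within 1 kb, 5.92% of tested genes with a start site had a Foxa2 peak. Chosen after seeing the data, leaving out NMPdiff and summing Eno1 with Eno1b kept the count of 4 genes with embryo above culture, and the sum kept the other counts of calls too. Of 544 recomputed ratios and medians of the 10 genes, 542 moved by less than 1.5-fold and 0 changed sign where called. Those that moved further were Pfkp in NotoPdiff with a pseudocount of 5, at -1.51 and -1.37, which ended its call, so that 5 genes were lower in NotoPdiff in place of 6, and 2 in MPdiff in place of 3, where Pdk1 was lost. Pfkp, the lowest of the 10, averages under 20 FPKM, and that filter also left 5. The share of tested genes called lower in NotoPdiff was 2.21% with a pseudocount of 0.1 and 0.411% with 5, in place of 1.21%.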
